A study of Mus musculus with 12 samples.

Results

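The 6 genes described here were the ligands Csf1 and Il34, their shared receptor gene Csf1r, and the receptor genes Csf2ra, Csf2rb and Csf2rb2. They were picked by gene symbol from the 20776 genes of the deposited tables, and each symbol matched 1 row in the table of each fraction. The RNA came from the injured mouse cortex, taken as a square of 3 mm around the wound 12 h after the injury, dissociated and sorted by immunopanning, in which cells bind to antibody-coated plates. The 4 groups held 3 libraries each: astrocyte fraction of Sema4B-/- mice, astrocyte fraction of Sema4B+/- mice, immune fraction of Sema4B-/- mice, and immune fraction of Sema4B+/- mice. Sema4b encodes a transmembrane semaphorin. All mice were injured, and the heterozygotes used for comparison carried 1 intact copy of Sema4b. Neither wild-type nor uninjured mice were analysed here. The astrocyte fraction was what bound an ACSA-2 plate, and the immune fraction what bound a secondary-antibody-only plate and a CD45 plate, so cells that stick to a plate without a specific antibody belong to the immune fraction by design. Below, "knockout" stands for Sema4B-/- and "heterozygote" for Sema4B+/-.

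CSF1 and IL-34 are secreted proteins that bind the same receptor tyrosine kinase, CSF1R, on which microglia depend for survival. In the healthy mouse forebrain IL-34 is made mostly by neurons, whereas CSF1 comes from glia. Csf2ra encodes the ligand-binding chain of the GM-CSF receptor, which pairs with the common beta chain encoded by Csf2rb. The common beta chain also serves the IL-3 and IL-5 receptors, and mice have a close copy, Csf2rb2, whose product serves IL-3 alone.

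Csf2rb and Csf2rb2 lie side by side on chromosome 15 of GRCm38, at chr15:78325752-78353847 on the plus strand and chr15:78282507-78305721 on the minus strand, 20030 bases apart. Their coding sequences are 2688 and 2634 bases long, and 95.2% of 2628 aligned bases are identical. The coding start and the most different stretch are shown. Differing bases decide how well a short read can be given to one gene or the other. Over coding bases 1 to 60 the genes differ at 1 base, in capitals:
Csf2rb: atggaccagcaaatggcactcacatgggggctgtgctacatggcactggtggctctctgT
Csf2rb2: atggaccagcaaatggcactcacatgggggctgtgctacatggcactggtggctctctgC
Over bases 304 to 363 of Csf2rb and 307 to 366 of Csf2rb2 they differ at 13 bases, the most of any gap-free window of 60, again in capitals:
Csf2rb: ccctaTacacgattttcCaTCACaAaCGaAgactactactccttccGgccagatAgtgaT
Csf2rb2: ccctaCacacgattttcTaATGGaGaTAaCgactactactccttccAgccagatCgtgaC
The longest run without a difference is 242 bases. Of all 100-base windows of the annotated transcripts, 4.63% of those in Csf2rb and 6.82% of those in Csf2rb2 also occur in the other gene. The read length and the handling of reads that match both genes were not given in the sources used here, so the split of reads between these 2 genes is uncertain.

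For the other members no search for copies was made. Csf1 lies at chr3:107741048-107760469 and Il34 at chr8:110741829-110805924, both on the minus strand, and Csf2ra lies at chr19:61223957-61228429 on the minus strand. Exons of Il34 overlap those of the antisense gene Gm15894, which held 45 reads over all 12 libraries, and Csf1r, on chromosome 18, overlaps exons of Hmgxb3 on the opposite strand, which held 5527. Whether counting used the strand was not given in the sources used here, so reads of such pairs may be mixed.

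The astrocyte libraries held 13530229 to 15993564 reads and the immune libraries 11111965 to 15135960. Levels are CPM, the reads of a gene per 1000000 reads, on TMM-scaled library totals. That scaling uses a factor per library and assumes that most genes do not differ. Many genes differed between the fractions, as given below, so the assumption is strained there. Sema4b itself had 27.7 to 58.3 CPM in knockout and 61.0 to 111 CPM in heterozygote astrocyte libraries, and 1.16 to 5.38 CPM in knockout and 6.06 to 8.83 CPM in heterozygote immune libraries, so its groups did not overlap and reads persisted in the knockouts. Its log2 fold change was -0.88 ± 0.29 (SE) in the astrocyte fraction and -1.32 ± 0.48 in the immune fraction, with edgeR adjusted p of 0.930 and 0.270. The astrocyte marker list (15 genes, led by the glutamate transporter genes Slc1a2 and Slc1a3) summed to 42157 to 62408 CPM in knockout and 45188 to 52833 CPM in heterozygote astrocyte libraries, against 839 to 1900 and 1047 to 1172 CPM in the immune ones. The microglia list (15 genes, led by the purinergic receptor genes P2ry12 and P2ry13) summed to 515 to 915 and 536 to 760 CPM in the astrocyte libraries of knockouts and heterozygotes, against 8165 to 12920 and 13959 to 19493 CPM in the immune ones. The immune fraction also held neuronal RNA. The neuron list (16 genes, led by the synaptic genes Snap25 and Syt1) summed to 5528 to 9187 CPM in knockout and 3393 to 5461 CPM in heterozygote immune libraries, against 2669 to 4952 and 3094 to 4068 CPM in the astrocyte ones. None of the microglia or neuron markers was at 0 in any library. Libraries are named by the number in the deposited column heads, odd for the immune and even for the astrocyte fraction. The labels do not say that libraries came from separate mice, and p-values therefore cover only the spread from library to library, which may be technical.

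**Figure D1:**
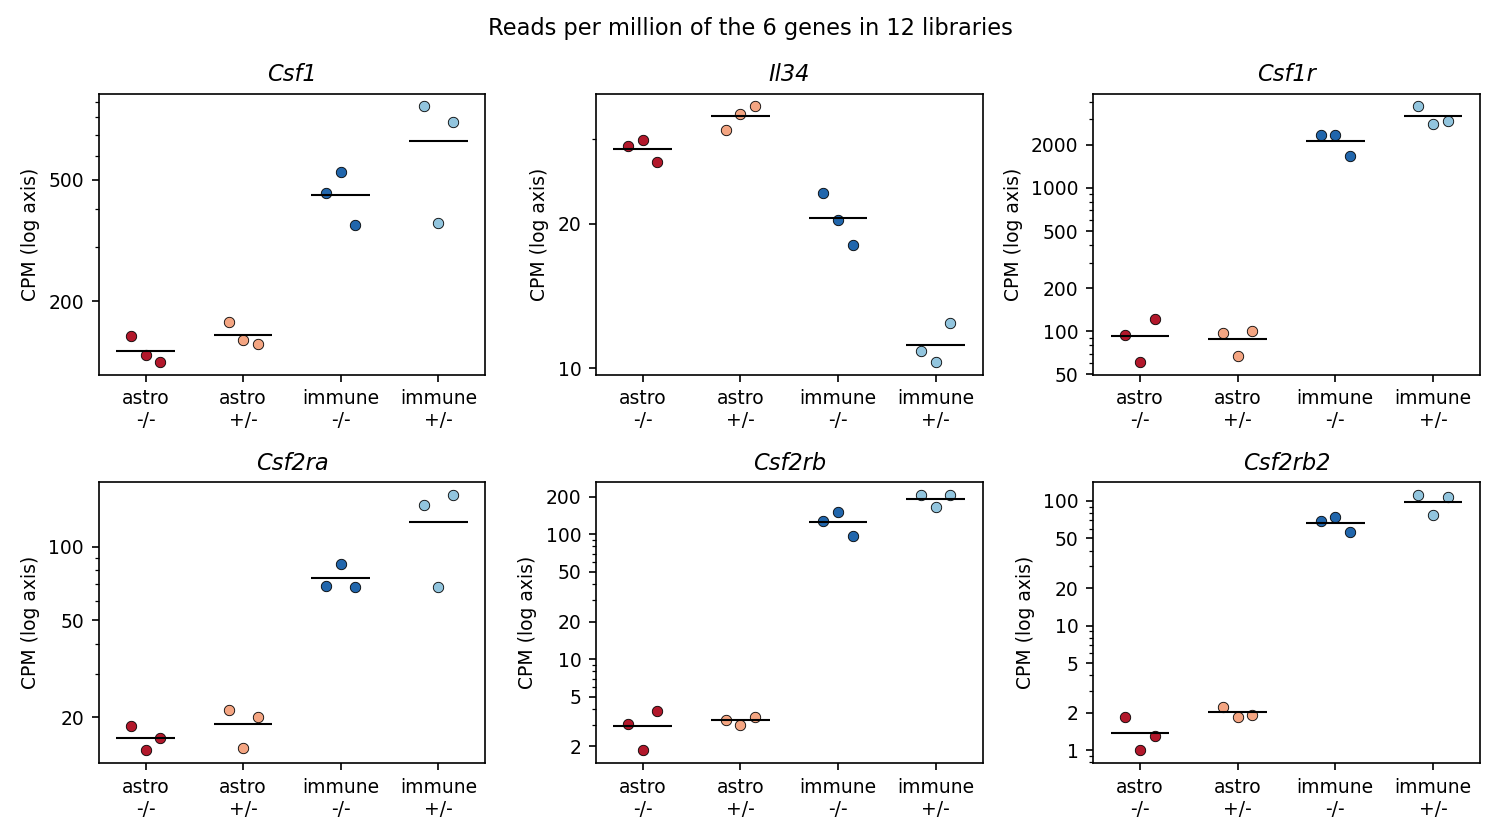
CPM on TMM-scaled totals (log axis, a different range in each panel) of the 6 genes in 12 libraries; points are libraries and lines are group means (n = 3). Il34 is the 1 gene whose astrocyte libraries lie above its immune libraries, and its knockout immune libraries (18.0 to 23.1 CPM) lie above the heterozygote ones (10.3 to 12.4 CPM).

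Between the fractions, Il34 ran opposite to the other 5 members. Il34 was higher in the astrocyte than in the immune fraction in both genotypes, while Csf1 and all 4 receptor genes were lower there, in most cases by far more. Il34 had 29.1, 29.8 and 26.8 CPM in the knockout astrocyte libraries, against 23.1, 20.4 and 18.0 CPM in the knockout immune libraries. In heterozygotes it had 31.3, 33.8 and 35.1 CPM in the astrocyte libraries, against 10.9, 10.3 and 12.4 CPM in the immune libraries. No immune library reached the lowest astrocyte library of its genotype, but the gap was far narrower in knockouts. The log2 ratio of astrocyte over immune fraction was 0.48 ± 0.14 in knockouts (1.39-fold, edgeR adjusted p 0.0111) and 1.58 ± 0.15 in heterozygotes (2.98-fold, edgeR adjusted p 7.59e-07). The knockout value was the weaker of these calls, with adjusted p between 0.00217 and 0.0413 over other tools, scalings, filters and a fit of the 6 libraries alone.

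Csf1, the other CSF1R ligand, ran the other way. It had 154, 133 and 126 CPM in knockout astrocyte libraries, against 452, 529 and 354 CPM in knockout immune libraries. In heterozygotes it had 171, 149 and 145 CPM in the astrocyte libraries, against 870, 360 and 773 CPM in the immune libraries. The astrocyte libraries were thus narrowly spread and the heterozygote immune libraries widely, with library 3 below the other two. The log2 ratio of astrocyte over immune fraction was -1.69 ± 0.28 in knockouts (adjusted p 0.000151) and -2.11 ± 0.28 in heterozygotes (4.30-fold lower, adjusted p 2.09e-05), both by edgeR.

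Csf1r, the receptor that both ligands share, had 94.8, 61.2 and 121 CPM in knockout astrocyte libraries, against 2341, 2344 and 1663 CPM in knockout immune libraries. In heterozygotes it had 97.9, 66.9 and 101 CPM in the astrocyte libraries and 3706, 2798 and 2938 CPM in the immune libraries. The ratio of astrocyte over immune fraction was -4.52 ± 0.31 on the log2 scale in knockouts and -5.15 ± 0.32 in heterozygotes (35.6-fold lower), with edgeR adjusted p of 5.74e-08 and 2.08e-08. Per 1000 reads of microglia markers, Csf1r had 108, 119 and 133 reads in knockout and 133, 125 and 133 in heterozygote astrocyte libraries. In the immune libraries it had 202, 181 and 204 in knockouts and 190, 200 and 194 in heterozygotes. The receptor thus stood lower against the microglia markers in every astrocyte library than in any immune library.

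The GM-CSF receptor chains showed the same order. Csf2ra had 18.4, 14.6 and 16.4 CPM in knockout astrocyte libraries, against 69.0, 85.0 and 68.3 CPM in knockout immune libraries, a log2 ratio of -2.17 ± 0.27. Its heterozygote values were 21.3, 14.9 and 19.98 CPM against 148, 68.1 and 163 CPM, a log2 ratio of -2.75 ± 0.28 (6.73-fold lower). The ligand-binding chain was therefore the receptor gene with the smallest gap between fractions in both genotypes. Csf2rb had 3.05, 1.86 and 3.85 CPM in knockout astrocyte libraries against 129, 152 and 96.8 CPM in the knockout immune ones, and 3.28, 2.97 and 3.45 CPM against 207, 166 and 208 CPM in heterozygotes. Csf2rb2 had 1.84, 0.997 and 1.31 CPM in knockout astrocyte libraries against 68.5, 74.0 and 56.0 CPM in the knockout immune ones, and 2.24, 1.86 and 1.93 CPM against 112, 76.9 and 107 CPM in heterozygotes. The beta chain genes thus had few reads in the astrocyte fraction, 28 to 53 per library for Csf2rb and 15 to 28 for Csf2rb2. Their log2 ratios of astrocyte over immune fraction were -5.43 ± 0.26 in knockouts and -5.90 ± 0.26 in heterozygotes (59.7-fold lower) for Csf2rb, and -5.58 ± 0.24 and -5.61 ± 0.24 for Csf2rb2. All 6 of these receptor ratios passed the edgeR threshold, with adjusted p of at most 1.47e-05.

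These calls stand against a wide background. In knockouts 30.7% of the 16880 genes tested were lower and 29% higher in the astrocyte fraction, and in heterozygotes 30.3% were lower and 30% higher. A call by itself is therefore common, and the members' median log2 ratio was -3.34 in knockouts and -3.95 in heterozygotes, beside medians over all genes of -0.07 and -0.04.

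Levels of different genes can be compared only per length, here as CPM per kilobase of merged exons. In the immune fraction the order was the same in both genotypes. Csf1r led with 366 ± 67.9 CPM per kb in knockouts and 545 ± 84.6 in heterozygotes (SD, n = 3), rank 70 and rank 60 among 20747 genes. Csf1 followed with 84.3 ± 16.6 and 126 ± 51.3 CPM per kb, then Csf2ra with 25.8 ± 3.30 and 44.0 ± 17.8. Csf2rb had 17.3 ± 3.82 and 26.6 ± 3.28, Csf2rb2 had 13.96 ± 1.95 and 20.8 ± 4.03, and Il34 was last with 10.5 ± 1.30 and 5.72 ± 0.553 CPM per kb. Across libraries the ranges of Csf2rb and Csf2rb2 overlapped in both genotypes, and those of Csf2ra and Csf2rb in heterozygotes. Within each immune library Csf2rb was above Csf2rb2, by 1.13 to 1.34 times in knockouts and 1.20 to 1.41 times in heterozygotes. Csf2ra was above Csf2rb in each heterozygote immune library, narrowly in library 3 (23.7 against 22.8 CPM per kb). The split of reads between Csf2rb and Csf2rb2 is uncertain, as given above.

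In the astrocyte fraction Csf1 led with 26.1 ± 2.68 CPM per kb in knockouts and 29.4 ± 2.59 in heterozygotes. Il34 with 14.6 ± 0.790 and 17.1 ± 0.977, and Csf1r with 16.02 ± 5.23 and 15.3 ± 3.25, overlapped in both genotypes and changed places between them. Csf2ra had 5.73 ± 0.649 and 6.53 ± 1.17 CPM per kb. Csf2rb (0.401 ± 0.138 and 0.445 ± 0.0329) and Csf2rb2 (0.292 ± 0.0902 and 0.424 ± 0.0431) overlapped at the bottom.

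The 2 ligands can be set against each other within a library on the same scale. Il34 made up 33.8%, 37.6% and 36.4% of the summed Csf1 and Il34 level in knockout astrocyte libraries, against 33.1%, 37.9% and 39.4% in heterozygote ones. In the immune libraries it made up 12.1%, 9.40% and 12.1% in knockouts, against 3.26%, 7.18% and 4.15% in heterozygotes. The astrocyte libraries of the genotypes overlapped, and the immune libraries did not. Neuron markers were higher and microglia markers lower in the knockout immune libraries, and their part in this share was not tested. Csf1 exceeded Il34 by 1.79 ± 0.155 times in knockout and 1.73 ± 0.257 times in heterozygote astrocyte libraries, and by 8.06 ± 1.37 and 21.9 ± 8.44 times in the immune ones. Csf1r stood at 0.374, 0.262 and 0.559 times the summed ligands in knockout and 0.351, 0.254 and 0.384 times in heterozygote astrocyte libraries. In the immune libraries it stood at 4.16, 3.67 and 3.77 times in knockouts and 3.77, 6.60 and 3.33 times in heterozygotes. The receptor RNA thus exceeded the ligand RNA in every immune library and lay below it in every astrocyte library.

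**Figure D2:**
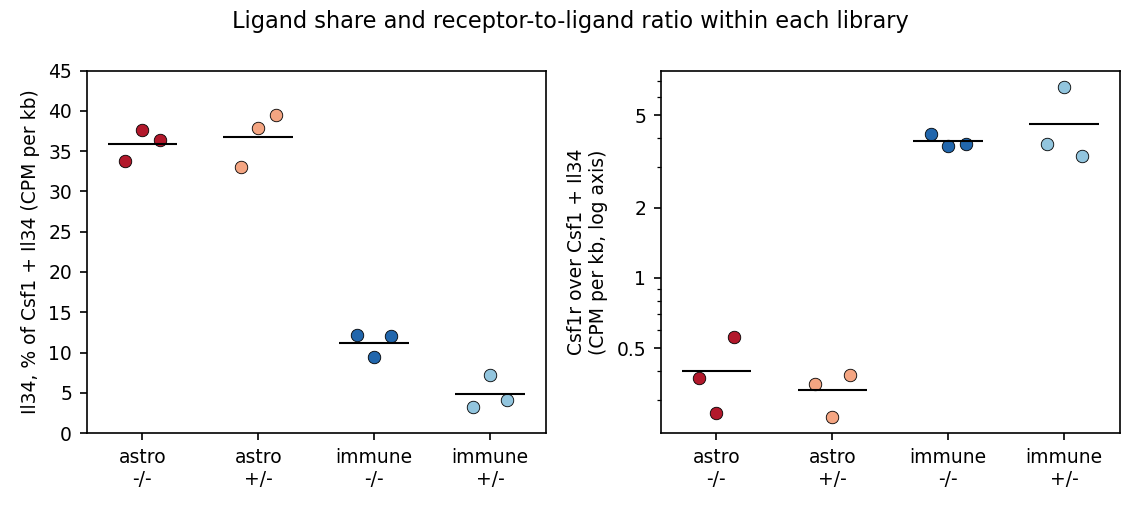
Left, Il34 as a percentage of the summed Csf1 and Il34 level (CPM per kb); right, Csf1r over that sum (log axis); points are libraries and lines are group means (n = 3). The Il34 share is 9.40% to 12.1% in knockout and 3.26% to 7.18% in heterozygote immune libraries, while the astrocyte libraries of the genotypes overlap in both panels.

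Between the genotypes, no gene passed the adjusted edgeR threshold of 0.05 in either fraction (0% of 15648 genes in the immune and 0% of 15468 in the astrocyte fraction). In the immune fraction 1517 genes were higher and 767 lower at an unadjusted p under 0.05, with a lowest adjusted p of 0.227. DESeq2 called 399 genes and limma-voom 0.

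Il34 was the member with the largest genotype difference in the immune fraction. It had 391, 295 and 311 reads (23.1, 20.4 and 18.0 CPM) in the knockout libraries 7, 9 and 11, against 133, 143 and 146 reads (10.9, 10.3 and 12.4 CPM) in the heterozygote libraries 1, 3 and 5. The lowest knockout library stood above the highest heterozygote one, as it did for 9.29% of genes tested. The mean was 20.5 ± 2.54 CPM in knockouts and 11.2 ± 1.08 CPM in heterozygotes (SD, n = 3). The log2 fold change was 0.94 ± 0.19 (1.91-fold), with an unadjusted edgeR p of 0.000817, rank 15 of all genes, and an adjusted p of 0.227, which missed the threshold. At an unadjusted p under 0.05, 9.69% of genes were higher in knockouts. DESeq2 gave a log2 fold change of 0.95 and an adjusted p of 0.0179, as 1 of the 2.8% of genes it called higher. In the authors' deposited table Il34 had a log2 fold change of 0.952 and an adjusted p of 0.0304, where 0.805% of genes were higher at an adjusted p of at most 0.05. The 2 count models thus put this gene on different sides of the threshold with nearly the same fold change.

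Neuronal RNA moved the same way as Il34 between the genotypes in these libraries. In knockout libraries 7, 9 and 11 the neuron-marker sums were 6323, 5528 and 9187 CPM, beside 23.1, 20.4 and 18.0 CPM of Il34. In heterozygote libraries 1, 3 and 5 the sums were 3393, 5461 and 4881 CPM, beside 10.9, 10.3 and 12.4 CPM of Il34. The relation between neuronal RNA and Il34 within a genotype was not tested. Of 16 neuron markers, 16 had a positive log2 fold change in knockout over heterozygote immune libraries, with a median of 0.69 beside -0.0037 over all genes, and none passed the adjusted edgeR threshold (8 had an unadjusted p under 0.05). Their summed level of 5528 to 9187 CPM in knockouts and 3393 to 5461 CPM in heterozygotes did not overlap. Per 1000 reads of these markers, Il34 had 3.66, 3.69 and 1.96 reads in knockout and 3.204, 1.89 and 2.54 reads in heterozygote immune libraries, which overlapped. Scaling libraries to the neuron list moved the median of all genes to -0.68, by construction since those markers were higher in knockouts. The Il34 log2 fold change was then 0.29 (edgeR adjusted p 0.602), beside that median of -0.68. The part of neuronal RNA in the Il34 difference was not tested. In the astrocyte libraries Il34 stood higher against the same markers, at 8.94 ± 2.58 reads per 1000 in knockouts and 9.80 ± 1.35 in heterozygotes. Other lists moved the same way, with none of their genes past the adjusted edgeR threshold. Mural cell markers had a positive log2 fold change for 7 of 7 genes, with a median of 1.86 (3 with an unadjusted p under 0.05), and summed to 20.5 to 412 CPM in knockout and 27.9 to 94.2 CPM in heterozygote immune libraries. Endothelial markers were positive for 9 of 9 genes (median 0.79), with sums of 27.3 to 154 and 53.6 to 70.4 CPM, and oligodendrocyte markers for 9 of 9 (median 0.30), with sums of 401 to 872 and 500 to 515 CPM. Astrocyte markers, whose fraction held more Il34, were positive for 14 of 15 genes (median 0.34), with sums of 839 to 1900 CPM in knockouts and 1047 to 1172 CPM in heterozygotes. The sums of these 4 lists overlapped between the genotypes, and their part in the Il34 difference was not tested.

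**Figure D3:**
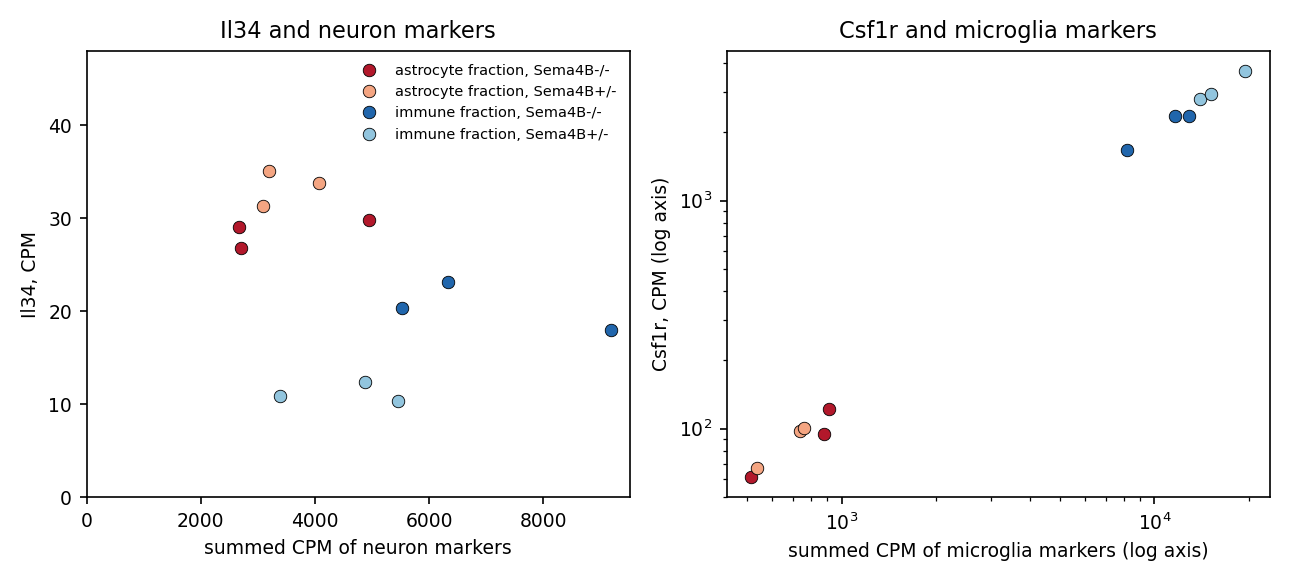
Left, Il34 (CPM) against the summed CPM of 16 neuron markers; right, Csf1r against the summed CPM of 15 microglia markers, both on log axes; points are the 12 libraries. Knockout immune libraries lie higher on neuron markers (5528 to 9187 CPM, heterozygotes 3393 to 5461) and lower on microglia markers (8165 to 12920 CPM, heterozygotes 13959 to 19493).

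Csf1 and the receptor genes had negative log2 fold changes in the immune fraction, and none passed the adjusted threshold. Csf1r was lower in all knockout libraries (2341, 2344 and 1663 CPM) than in any heterozygote library (3706, 2798 and 2938 CPM), with a log2 fold change of -0.51 ± 0.25 (unadjusted edgeR p 0.0720, adjusted 0.376). Csf2rb averaged 126 ± 27.8 CPM in knockouts and 194 ± 23.9 CPM in heterozygotes, with a log2 fold change of -0.56 ± 0.20 (adjusted p 0.270 by edgeR). Csf2rb2 averaged 66.2 ± 9.23 and 98.7 ± 19.1 CPM, with a log2 fold change of -0.51 ± 0.19 (adjusted p 0.272 by edgeR). For these 3 genes the groups did not overlap, with the knockouts below, as for 11.2% of genes tested. Csf2ra averaged 74.1 ± 9.47 CPM in knockouts and 126 ± 51.0 CPM in heterozygotes, with a log2 fold change of -0.70 ± 0.29 (adjusted p 0.312 by edgeR). Csf1 averaged 445 ± 87.7 and 668 ± 271 CPM, with a log2 fold change of -0.51 ± 0.32 (adjusted p 0.463 by edgeR). The groups of the last 2 genes overlapped, with heterozygote library 3 low for both, at 68.1 and 360 CPM. Without that library the log2 fold change was -0.98 for Csf2ra and -0.80 for Csf1, with edgeR adjusted p of 0.159 and 0.173. Csf2ra, Csf2rb and Csf2rb2 had an unadjusted p under 0.05, as did 4.9% of genes in the lower direction. In the authors' deposited table the adjusted p of these 5 genes was between 0.233 and 0.548.

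Microglial RNA moved with these 5 genes. Of 15 microglia markers, 15 had a negative log2 fold change in knockout over heterozygote immune libraries, with a median of -0.52, beside -0.51 for the 6 members and -0.0037 for all genes, and none passed the adjusted threshold. Per 1000 microglia-marker reads, Csf1r had 196 ± 12.3 reads in knockout and 195 ± 5.24 reads in heterozygote immune libraries. Csf1 had 41.1 ± 2.24 and 40.5 ± 13.1, Csf2ra 6.96 ± 1.25 and 7.73 ± 2.94, Csf2rb 11.6 ± 0.430 and 12.1 ± 1.53, and Csf2rb2 6.16 ± 0.609 and 6.11 ± 0.843. On this scale the knockout and heterozygote libraries overlapped for each of the 5 genes. With libraries scaled to the microglia list, which moved the median of all genes to 0.53, the log2 fold change was 0.02 for Csf1, 0.01 for Csf1r, -0.15 for Csf2ra, -0.06 for Csf2rb and 0.01 for Csf2rb2. Markers of other myeloid cells also stood lower in knockouts, with neutrophil sums of 596 to 1636 against 1388 to 2692 CPM, monocyte sums of 649 to 1403 against 1016 to 2812 CPM, and border macrophage sums of 187 to 340 against 443 to 475 CPM. In RNA from bulk fractions, fewer cells of a type and less RNA per cell cannot be told apart.

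**Figure D4:**
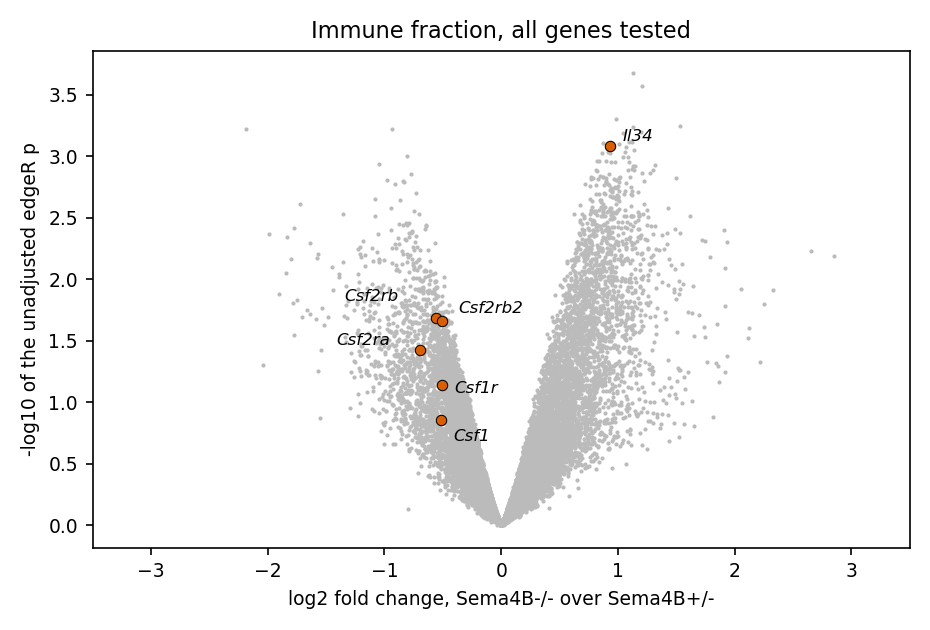
Log2 fold change of knockout over heterozygote (x axis) against −log10 of the unadjusted edgeR p (y axis) in the immune fraction, with grey points for the 15648 genes tested and orange points for the 6 members. Il34, at 0.94 on the x axis, lies near the top of the right arm, and the other members lie between -0.70 and -0.51.

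In the astrocyte fraction the genotypes were close. Il34 averaged 28.5 ± 1.55 CPM in knockouts and 33.4 ± 1.91 CPM in heterozygotes, with all knockout libraries (29.1, 29.8 and 26.8 CPM) below all heterozygote libraries (31.3, 33.8 and 35.1 CPM) and a log2 fold change of -0.22 ± 0.11. Csf2rb2 also had all knockout libraries below the heterozygote ones, at 1.38 ± 0.428 and 2.01 ± 0.204 CPM, a log2 fold change of -0.53 ± 0.30. Groups without overlap and with the knockouts below made up 4.89% of genes tested. Csf1 had a log2 fold change of -0.17 ± 0.11, Csf1r 0.06 ± 0.24, Csf2ra -0.18 ± 0.17 and Csf2rb -0.15 ± 0.28. The edgeR adjusted p was at least 0.930 for every member, which was also the lowest of any gene, and 593 genes had an unadjusted p under 0.05. The summed microglia and neuron markers overlapped between the genotypes in this fraction. Fibroblast markers did not, with 159 to 181 CPM in knockouts and 199 to 234 CPM in heterozygotes, and 6 of 6 had a negative log2 fold change (3 with an unadjusted p under 0.05). Mural markers were negative for 7 of 7 genes (median -0.59, 3 with an unadjusted p under 0.05) and endothelial markers for 9 of 9 (median -0.24), with sums of 691 to 1190 and 294 to 375 CPM in knockouts and 924 to 1538 and 160 to 655 CPM in heterozygotes. None of these markers passed the adjusted edgeR threshold. Their part in the values of Il34 and Csf2rb2, which lay on the same side, was not tested.

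**Figure D5:**
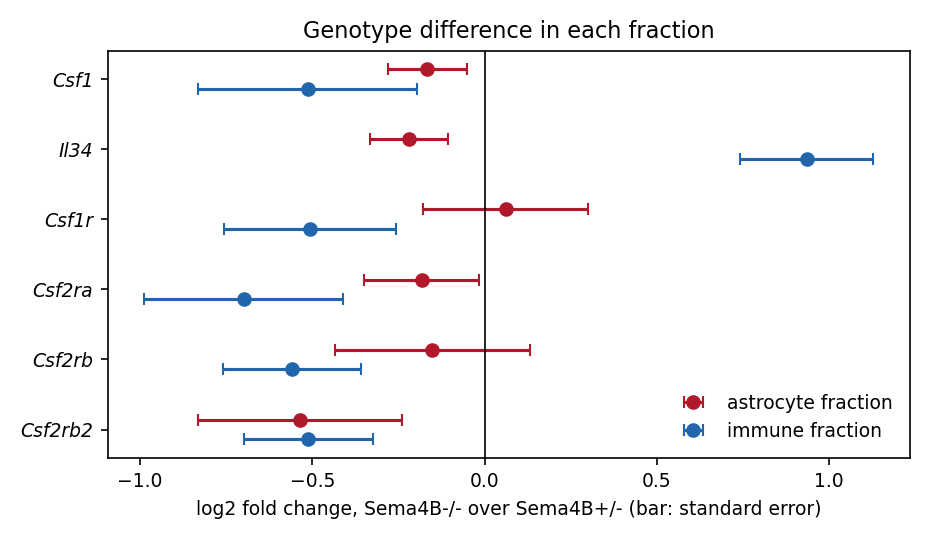
Log2 fold change of Sema4B-/- over Sema4B+/- for the 6 genes in the astrocyte fraction (red) and the immune fraction (blue), with bars for 1 standard error of the fit. Il34 is positive in the immune fraction (0.94) and negative in the astrocyte fraction (-0.22), and the other 5 genes are between -0.70 and -0.51 in the immune fraction.

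Whether the genotype effect differed between the fractions was tested directly in the fit of all 12 libraries. For Il34 the effect in the astrocyte fraction minus that in the immune fraction was -1.10 ± 0.20 on the log2 scale. Its unadjusted edgeR p of 0.000115 was the second lowest of 16880 genes, and its adjusted p was 0.475. No gene was called (0%), while 10.4% had an unadjusted p under 0.05. DESeq2 called 3 genes, among them Il34 with a difference of -1.09 and an adjusted p of 0.00526, and limma-voom called 0. For the other members the difference was 0.41 ± 0.38 for Csf1, 0.64 ± 0.38 for Csf1r, 0.58 ± 0.37 for Csf2ra, 0.47 ± 0.34 for Csf2rb and 0.04 ± 0.36 for Csf2rb2, with unadjusted edgeR p above 0.05 for each.

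Of 6 other ligands of these receptor families, 3 were among the genes analysed here. Csf2, Il3 and Il5, which encode the ligands of the Csf2rb receptors, and the receptor gene Il5ra were not analysed here. Csf3 (G-CSF), Flt3l and Kitl (stem cell factor) were. Kitl, the ligand of the KIT receptor, averaged 24.0 ± 2.80 CPM in knockout and 17.0 ± 2.26 CPM in heterozygote immune libraries. These did not overlap, with the knockouts above, as for 9.29% of genes tested. Its log2 fold change was 0.56 ± 0.19 (edgeR adjusted p 0.253). Among 6 other receptors, Csf3r, the G-CSF receptor gene of neutrophils, was 34.6-fold lower in the astrocyte than in the immune fraction of knockouts and 60.2-fold lower in heterozygotes. Ptprz1, a receptor phosphatase that binds IL-34, was higher in the astrocyte fraction by 35.8-fold in knockouts and 53.4-fold in heterozygotes. Csf3r averaged 227 ± 49.6 CPM in knockout and 400 ± 211 CPM in heterozygote immune libraries, with overlap. Ptprz1 averaged 34.4 ± 23.3 and 22.4 ± 7.82 CPM there, also with overlap.

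Genes that act downstream of these receptors went both ways between the fractions. Of 26 signalling genes, 15 were lower and 7 higher in the astrocyte fraction of knockouts, and 17 were lower and 5 higher in heterozygotes (edgeR), beside 30.7% lower and 29% higher of all genes in knockouts and 30.3% and 30% in heterozygotes. Their median log2 ratio was -0.75 in knockouts and -0.94 in heterozygotes. The kinase gene Syk had 4.96 ± 1.57 CPM in the astrocyte and 182 ± 30.5 CPM in the immune fraction of knockouts, and 4.85 ± 1.47 and 258 ± 68.9 CPM in heterozygotes. The phosphatase gene Inpp5d (SHIP1) was 20.7-fold lower in knockouts and 37.2-fold lower in heterozygotes, and the phospholipase gene Plcg2 was 12.97-fold and 18.6-fold lower. Of 14 response and feedback genes, 5 were lower and 2 higher in the astrocyte fraction of knockouts, and 8 were lower and 2 higher in heterozygotes. The share of response genes lower in knockouts was thus near that of all genes, and their median log2 ratio was -0.33 in knockouts and -0.80 in heterozygotes. Bcl2a1b, a survival gene whose reads may be shared with its near-identical Bcl2a1 copies, was 32.2-fold lower in knockouts and 47.8-fold lower in heterozygotes, while Spry2, a feedback inhibitor of receptor tyrosine kinases, was 8.71-fold and 8.01-fold higher.

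Between the genotypes none of these genes passed the edgeR threshold in either fraction. In the immune fraction 23 of 26 signalling genes had a negative log2 fold change, with a median of -0.39, and 13 of 14 response genes, with a median of -0.38. Over all genes 50.4% were negative, with a median of -0.0037. Myc, a growth gene induced by CSF1R signalling, had 40.5 ± 21.7 CPM in knockouts and 97.2 ± 30.9 CPM in heterozygotes, or -1.22 ± 0.38 as a log2 fold change (adjusted p 0.242 by edgeR). Mcl1, a survival gene, had 726 ± 160 and 1179 ± 96.6 CPM, or -0.64 ± 0.23 as a log2 fold change (adjusted p 0.272 by edgeR), and Pik3cd, a PI3-kinase subunit gene of leukocytes, had 82.9 ± 22.8 and 126 ± 7.02 CPM. For these 3 genes the knockout libraries lay below all heterozygote libraries, as for 11.2% of genes tested. They were named by lowest p in their lists, which favours such gaps. Src, a kinase gene, was the 1 signalling gene with a positive difference and an unadjusted p under 0.05, at 84.3 ± 6.87 CPM in knockouts and 63.7 ± 10.2 CPM in heterozygotes (log2 fold change 0.48 ± 0.17). In the astrocyte fraction 15 of 25 signalling genes tested and 6 of 14 response genes had a negative log2 fold change, with medians of -0.02 and 0.04. The microglia markers moved in the immune libraries as given above, and their part in these lists was not tested.

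The genes whose profile was most like that of a member were found by the root mean square difference of centred log2(CPM + 0.5) over the 12 libraries, among 12029 genes. These values are descriptions, and neighbours share the libraries and their composition. For Il34 they were A930017M01Rik (0.130), Bace1 (0.165), Adcy6 (0.165), Slitrk5 (0.175) and Dzip1 (0.182). Bace1, the gene of the beta-secretase, averaged 43.9 CPM in knockout and 45.4 CPM in heterozygote astrocyte libraries, and 25.8 and 14.9 CPM in the immune ones. Slitrk5, which encodes a synaptic membrane protein, averaged 49.7 and 56.4 CPM, and 33.3 and 20.3 CPM. For Csf1r they were Laptm5, Cyth4, Nckap1l, Inpp5d and Cd53, at 0.133 to 0.143. Cd53, a leukocyte tetraspanin gene, averaged 20.4 CPM in knockout and 19.3 CPM in heterozygote astrocyte libraries, and 446 and 668 CPM in the immune ones. For Csf1 they were Rpl3 (a ribosomal protein gene whose reads may be shared with pseudogenes), Card19, Bcl2l11, Litaf and Slc25a37, at 0.157 to 0.177. Litaf averaged 86.4 and 92.7 CPM in the astrocyte libraries and 268 and 367 CPM in the immune ones.

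Promoters are shown for the members with an entry in the RefSeq promoter table used here, since Csf2ra and Csf2rb2 had higher levels in the immune fraction together, with the ligand gene Csf1 beside them. Each runs 5′ to 3′ over 250 bases before and 50 after the start, on the minus strand of GRCm38.p6. Capitals mark GAGGAA or its reverse complement TTCCTC, the core letters of sites of PU.1, the ETS factor of the myeloid lineage.
Csf2ra, chr19:61228369-61228668: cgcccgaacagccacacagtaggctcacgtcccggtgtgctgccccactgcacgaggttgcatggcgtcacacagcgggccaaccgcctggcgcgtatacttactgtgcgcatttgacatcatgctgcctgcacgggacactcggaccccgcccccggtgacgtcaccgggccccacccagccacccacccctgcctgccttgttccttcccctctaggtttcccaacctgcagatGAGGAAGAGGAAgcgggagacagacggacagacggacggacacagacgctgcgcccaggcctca
Csf2rb2, chr15:78305672-78305971: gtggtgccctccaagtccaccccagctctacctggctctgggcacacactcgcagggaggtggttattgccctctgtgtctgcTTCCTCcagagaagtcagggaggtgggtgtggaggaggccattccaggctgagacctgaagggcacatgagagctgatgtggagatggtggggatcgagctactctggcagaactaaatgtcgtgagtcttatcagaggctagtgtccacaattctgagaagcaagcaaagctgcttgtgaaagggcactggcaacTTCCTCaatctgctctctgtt
Csf1, chr3:107760420-107760719: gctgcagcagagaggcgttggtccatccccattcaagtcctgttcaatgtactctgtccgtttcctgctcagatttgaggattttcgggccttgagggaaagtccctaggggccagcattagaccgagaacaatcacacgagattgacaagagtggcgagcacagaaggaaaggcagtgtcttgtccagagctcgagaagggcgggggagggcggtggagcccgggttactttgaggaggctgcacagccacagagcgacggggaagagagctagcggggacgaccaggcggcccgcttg
The letters occurred 2 times in Csf2ra, side by side on the strand shown, 2 times in Csf2rb2 and 0 times in Csf1. On either strand they occurred in 28.3% of 32851 promoters of the same length, so their presence is common. TGACTCA, the letters of AP-1 sites, occurred in 5.20% of promoters on either strand and in 0 of these 3. A match is a run of letters and not a measured site.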

How the data were processed

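Per the submitters' processing notes, cutadapt, STAR, HTSeq and DESeq2 were used on build GRCm38, with versions and annotation not given in the sources used here. Per the file headers, the columns used were raw counts, which are whole reads assigned to each gene. The deposited tables also gave the authors' log2 fold changes and the authors' p-values, printed only where named as such. The 12 deposited normalized columns were not used.

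Genotypes were compared within each fraction, and fractions in a fit of all 12 libraries, by the two-sided edgeR 4.0.16 quasi-likelihood F test (R 4.3.3) with TMM scaling, filterByExpr (minimum count 10, total 15), a robust fit and Benjamini-Hochberg adjustment over all genes tested, at 0.05. All 6 members passed the filter in every fit. Levels are CPM on the TMM totals of the fit of 12 libraries. Mean ± SD is over 3 libraries, and fold changes carry standard errors. In the deepest and shallowest library a floor of 3 reads is 0.174 and 0.255 CPM, for counting error only. Lengths are merged exons of GENCODE M21, and promoters are RefSeq's.

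All members are named, and of each pathway list up to 3 genes per comparison of at least 5 CPM, taken by lowest p, from which examples are given. Of marker lists the first 2 genes are named, and of likeness 5 genes. The members and lists were chosen with earlier results of these data known. Alternatives were RLE and upper-quartile scaling, scaling to microglia or neuron markers, DESeq2 1.42.0, limma-voom (limma 3.58.1), other filters, other fits and leaving out each library.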

Additional observations from a re-analysis of the deposited data

Results flagged for a closer look

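Il34 and Csf1r had genotype differences that pointed opposite ways in the fractions. Csf1r had log2 fold changes of -0.51 ± 0.25 in the immune and 0.06 ± 0.24 in the astrocyte fraction. Il34 was flagged because every knockout library followed its direction, though neither of its differences passed the adjusted edgeR threshold. In the immune fraction every knockout library lay above the heterozygote mean, and in the astrocyte fraction every knockout library lay below it. The share of all genes with this pattern was not computed. Knockouts lay above without overlap for 9.29% of genes tested in the immune fraction, and below for 4.89% in the astrocyte fraction. The log2 effect in the astrocyte fraction minus that in the immune fraction was -1.10 ± 0.20 (edgeR unadjusted p 0.000115, adjusted p 0.475 over all genes). With each library left out in turn it stayed between -1.19 and -1.01. In the immune libraries the neuron markers were also higher in knockouts, at 5528 to 9187 CPM against 3393 to 5461 CPM in heterozygotes. Within each genotype there, the library with the highest neuron sum had the lowest Il34, a relation that was not tested. Relative to the neuron-marker reads, Il34 overlapped between the genotypes in the immune libraries, as given above. The part of neuronal RNA in the Il34 difference was not tested. In the astrocyte libraries the neuron markers overlapped, at 2669 to 4952 CPM in knockouts and 3094 to 4068 CPM in heterozygotes.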

How the results depend on the processing

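All 6 members kept their direction and their call between the fractions, in both genotypes, under each alternative run. Between the genotypes in the immune fraction, scaling to microglia markers turned Csf1 (0.023), Csf1r (0.0061) and Csf2rb2 (0.012) positive on the log2 scale, by its own construction since those markers were lower in knockouts. In the astrocyte fraction Csf1r was -0.12 with that scaling and -0.20 to 0.28 with each library left out, and Csf2rb was 0.011 with neuron scaling and -0.42 to 0.078 with each library left out. The difference of the genotype effect for Csf2rb2 was -0.019 with upper-quartile scaling and -0.22 to 0.23 with each library left out. None of these values passed a threshold, and the cause of the changes in the astrocyte fraction and in Csf2rb2 was not tested. DESeq2 called Il34 in the immune fraction (0.95) and in the difference between fractions (-1.09), where edgeR did not. The Il34 value in the immune fraction was 0.86 to 1.03 with each library left out, with edgeR adjusted p of 0.118 to 0.642, and 0.29 to 1.45 over the other alternatives. The main edgeR fits called 0 genes in each genotype comparison. For the immune fraction 2284 genes had an unadjusted edgeR p under 0.05, and DESeq2 called 399. These numbers were 593 and 1 for the astrocyte fraction, and 1753 and 3 for the difference. The 1 gene of DESeq2 was Gm10800 and the 3 were Il34, Fry and Cacna1c. Of these, Gm10800, Fry and Cacna1c are named after their values were seen. With scaling to microglia markers, edgeR called 1 gene in the astrocyte fraction, lower in knockouts. No paired analysis was run, because the deposited column numbers do not recur between groups and the labels do not tie a library of one group to a library of another. The fits of all 12 libraries therefore treated the fractions as independent, which they may not be. The low reads of Csf2rb and Csf2rb2 in the astrocyte fraction limit what could be detected there.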
